A study of Mus musculus with 6 samples.

Results

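The fibroblast growth factor (FGF) genes described here are the 4 receptors Fgfr1, Fgfr2, Fgfr3 and Fgfr4, the receptor-like gene Fgfrl1, the binding protein gene Fgfbp3, the secreted ligands Fgf1 and Fgf2, and the intracellular FGF homologues Fgf13 and Fgf14. They were taken by gene symbol, and the 10 symbols matched 10 of the 43383 rows of the deposited expression table. RNA-seq was run on astrocytes of the mouse somatosensory cortex in 6 libraries, 3 of upper-layer astrocytes (ULAs) and 3 of deep-layer astrocytes (DLAs). All libraries came from untreated male mice at 4 weeks of age that carried the Aldh1l1-eGFP transgene, in which the Aldh1l1 promoter drives green fluorescent protein, so cells in which that promoter is silent fell outside the sort. Both layers were dissected from the same brains, with layer I, the meninges and the corpus callosum removed and tissue at the border of layers IV and V discarded, and GFP-positive cells were then sorted by flow cytometry. Same-numbered libraries of the 2 layers were treated as 1 brain, giving 3 pairs.

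FGFs are secreted signals that bind receptor tyrosine kinases together with heparan sulfate, a sugar chain carried by proteins of the cell surface and matrix. Receptor activation passes through the adaptor FRS2 to the RAS-ERK kinases, and the Sprouty and DUSP genes limit the signal from within the cell. In the brain, FGF signalling is known for its part in forming astrocytes and in keeping their mature state, and Fgfr3 is widely used as an astrocyte marker. The intracellular homologues Fgf13 and Fgf14 are not secreted and bind the tails of voltage-gated sodium channels, a role known best from neurons.

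Levels are RPKM, reads per kilobase of mRNA scaled to the library's mapped reads, which is a per-length scale on which genes can be compared. In each library at least 99.9% of the 1876 to 2163 values above 0 on rows of at most 500 bases could be written as a whole number of reads within the 2-decimal rounding of the table, at depths of about 19700000 to 29600000 reads per library. The 10 astrocyte markers, among them Aldh1l1, Aqp4 and Slc1a2, were all expressed. They summed to between 11302 and 12233 RPKM in the ULAs and between 10685 and 11507 RPKM in the DLAs. Single markers moved both ways without overlap, with Slc1a2, Slc1a3 and Gja1 higher in the ULAs and S100b and Gfap higher in the DLAs. Slc1a3 was at 2697, 2480 and 2438 RPKM in the ULAs and 2000, 1790 and 1889 RPKM in the DLAs. Gfap was at 12.2, 12.5 and 10.4 RPKM against 23.8, 28.8 and 17.8 RPKM. Markers of other cells were far lower, but some moved with the layer. Oligodendrocyte markers, 9 of 10 of them at a mean of at least 1 RPKM, summed to between 89.3 and 187 RPKM in the ULAs and between 183 and 296 RPKM in the DLAs, and were higher in the DLAs of all 3 brains. The 4 red blood cell genes in the table summed to between 0.94 and 1.79 RPKM in the ULAs. In the DLAs they summed to between 15.4 and 76.7 RPKM. The sums of 6 meningeal fibroblast genes were between 3.07 and 4.11 RPKM and between 4.95 and 6.27 RPKM, respectively. Of these 6 genes only Col1a1 reached a mean of 1 RPKM, at 3.29, 2.49 and 2.76 RPKM against 4.73, 5.66 and 3.67 RPKM. The sums of the endothelial markers and of the pericyte and smooth muscle markers overlapped between the layers. Of 12 neuronal markers 2 reached a mean of 1 RPKM, and the list summed to between 9.43 and 9.88 RPKM in the ULAs and between 7.37 and 9.42 RPKM in the DLAs. Oligodendrocyte precursor markers, 2 of 7 at a mean of at least 1 RPKM, summed to between 86.1 and 97.0 RPKM in the ULAs. In the DLAs they summed to between 97.4 and 134.7 RPKM. Most of each sum was Olig1, at 83.0, 80.0 and 90.8 RPKM in the ULAs and 114.1, 125.5 and 87.2 RPKM in the DLAs. Pdgfra and Gpr17 were at most 0.07 RPKM. At less than 1 RPKM, Cspg4 was higher in the ULAs of all 3 brains and Sox10 in the DLAs of all 3. Microglial markers, 1 of 8 at a mean of at least 1 RPKM, were higher in the ULAs. They summed to between 13.6 and 14.7 RPKM there, against between 9.0 and 12.1 RPKM in the DLAs. The part these cells had in the FGF values was not tested. In such bulk libraries, fewer cells of a type and less RNA per cell cannot be told apart.

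Fgfr3 was by far the most abundant of the 10 genes in both layers. In the ULAs the mean fell from 302 RPKM for Fgfr3 through 51.3 for Fgfr2, 41.4 for Fgfr1, 36.5 for Fgf1 and 30.5 for Fgfrl1 to 9.01 for Fgf13, 6.32 for Fgf14, 3.56 for Fgfbp3, 1.60 for Fgf2 and 0.1 for Fgfr4. Among neighbours in that order, the ranges of the ULA libraries overlapped for Fgfr1 and Fgf1, Fgf1 and Fgfrl1, Fgf13 and Fgf14, Fgf14 and Fgfbp3, and Fgfbp3 and Fgf2, whereas Fgfr3, Fgfr2 and Fgfr1 were separated from one another. In the DLAs the order changed at 2 places, with Fgf1, at a mean of 39.0 RPKM, above Fgfr1, at 33.3 RPKM, and Fgfbp3, at 8.96 RPKM, above Fgf14, at 3.81 RPKM. Against the 13999 rows with a mean of at least 1 RPKM, Fgfr3 lay at percentile 98.4 of mean level and Fgf2 at percentile 8.4.

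**Figure D1:**
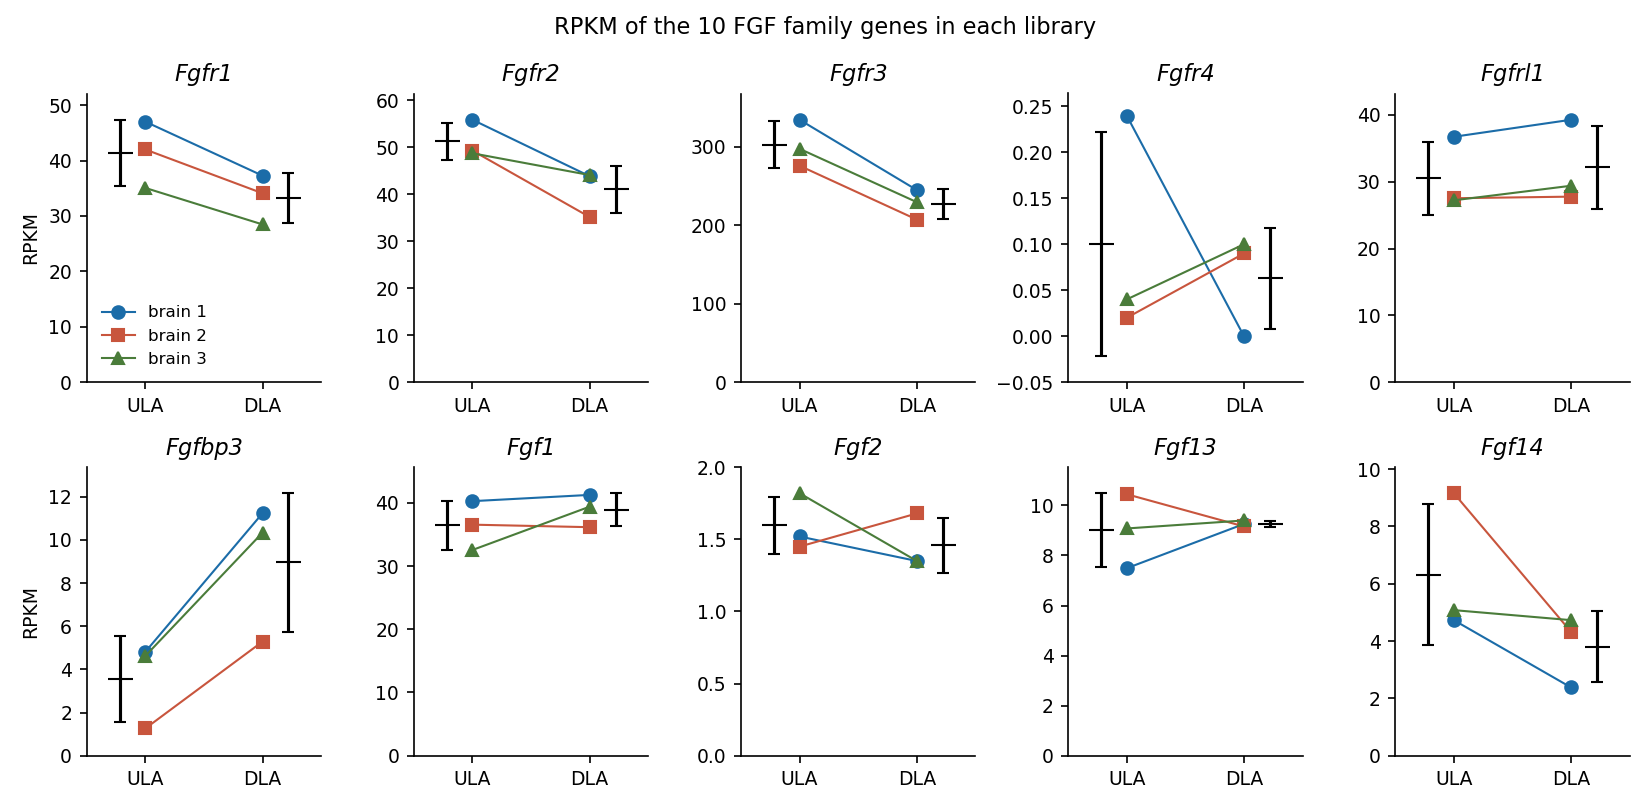
RPKM of each of the 10 FGF genes in every library, on a linear axis that starts near 0 and differs between panels. Points joined by a line are the ULA and DLA libraries of 1 brain, and the bars give the mean and the SD of 3 libraries. The Fgfr3, Fgfr2 and Fgfbp3 libraries of the 2 layers do not overlap, with Fgfbp3 alone higher in the DLAs.

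Of the 9 genes that could be tested, Fgfbp3 was the only one that passed at an adjusted p under 0.05, and it was higher in the DLAs. No gene passed as higher in the ULAs by limma, although 4 of the 9 (Fgfr1, Fgfr2, Fgfr3 and Fgf14) had an unadjusted p under 0.05 in that direction and 1 (Fgfbp3) in the other. Over all rows tested, 0.714% passed the adjusted threshold as higher in the ULAs and 0.914% as higher in the DLAs, and the shares at an unadjusted p under 0.05 were 5.64% and 10.8%. The layers did not overlap for 2 of the 9 genes with the ULAs above and for 1 with the DLAs above, against 6.59% and 9.27% of all rows. Among them Fgfr3 and Fgfbp3 were on lists of layer genes that the study drew from the same libraries. The genes were chosen with such results known, so the counts in this paragraph are not independent evidence of an excess over all rows. All 3 brains had the ULA library higher for 4 of the 9 genes and the DLA library higher for 2, against 15.2% and 23.2% of all rows. The median difference of the 9 genes was 0.08 on the log2(RPKM + 1) scale, ULA over DLA, and that of all rows was -0.03. Differences on this scale understate those of genes near 1 RPKM.

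Promoter windows of Fgfr3, Fgfr2 and Fgfbp3 are shown because they belong to the genes whose layers did not overlap. They are the 250 bases before the annotated start, 5′ to 3′ on the gene's strand, from RefSeq on GRCm38.p6, which is a later build than the mm9 coordinates of the expression table. Capitals mark every match on either strand to the GC box GGGCGG, the TATA box TATAAA, the CCAAT box CCAAT or the LEF/TCF core CTTTGA, none of which overlap in these windows. Windows were found for 8 of the 10 genes, the genes without one being Fgfr1 and Fgf1.
Fgfr3, chr5:33721474-33721723, plus strand: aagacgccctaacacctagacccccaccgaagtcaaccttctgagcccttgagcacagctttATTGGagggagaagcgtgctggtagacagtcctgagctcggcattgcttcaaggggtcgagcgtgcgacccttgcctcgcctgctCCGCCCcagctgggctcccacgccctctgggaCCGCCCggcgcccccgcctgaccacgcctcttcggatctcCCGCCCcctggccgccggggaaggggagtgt
Fgfr2, chr7:130266809-130267058, minus strand: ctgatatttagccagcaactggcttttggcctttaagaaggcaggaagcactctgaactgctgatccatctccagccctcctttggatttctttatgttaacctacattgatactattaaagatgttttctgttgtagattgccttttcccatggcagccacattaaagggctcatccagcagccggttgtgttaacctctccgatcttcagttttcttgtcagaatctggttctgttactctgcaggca
Fgfbp3, chr19:36919600-36919849, minus strand: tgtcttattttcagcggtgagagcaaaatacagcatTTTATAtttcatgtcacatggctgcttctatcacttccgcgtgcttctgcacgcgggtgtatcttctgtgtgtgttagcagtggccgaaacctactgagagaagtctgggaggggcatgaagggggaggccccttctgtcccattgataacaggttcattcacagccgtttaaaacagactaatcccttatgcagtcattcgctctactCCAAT

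The 3 windows differed in composition. The Fgfr3 window had 66.8% G and C, 19 CpG pairs, 3 GC boxes and 1 CCAAT box. It is the first of 2 that RefSeq lists for the gene, and the second (chr5:33722056-33722305) had 72.8% G and C, 24 CpG pairs, 2 GC boxes and no CCAAT box. The Fgfbp3 window had 47.2% G and C, 8 CpG pairs, 1 TATA box and 1 CCAAT box, and the Fgfr2 window had 44.0% G and C, 2 CpG pairs and none of the 4 motifs. Over 32851 windows of this length, 32.7% held a GC box, 12.4% a TATA box, 33.8% a CCAAT box and 13.8% a LEF/TCF core, and the median was 52.4% G and C with 6 CpG pairs. A match describes these letters and is not evidence of binding.

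Fgfr3 (chromosome 5, 34064373 to 34079717, plus strand, 19 exons; mm9) encodes the FGF receptor used most often as an astrocyte marker. Its level was 334, 276 and 297 RPKM in ULA replicates 1, 2 and 3, and the paired DLA libraries were at 245, 207 and 229 RPKM. Every ULA library was above every DLA library, and the ULA to DLA ratio within a brain was 1.33 ± 0.035 (SD, n = 3). The log2 difference was 0.41 (SE 0.09, 95% interval 0.21 to 0.61), which missed the threshold at an adjusted p of 0.057 by limma. Whether it passed depended on the processing, and it did so under 5 of 12 alternatives. The adjusted p was 0.0361 with rows of a mean of at least 5 RPKM, 0.0238 with quantile normalization, 0.0499 without replicate 2 and 0.0178 without replicate 3. It was 0.562 without replicate 1, 0.31 without the replicate block, 0.353 with no filter on low rows and 0.18 without the intensity trend of the fit, and 2 further settings (pseudocount 0.1 and median centring) gave 0.0573 and 0.0768. Fgfr3 was also on a list of layer genes that the study drew from the same libraries, so its direction here is not independent evidence.

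Fgfr2 (chromosome 7, 137305965 to 137410322, minus strand, 19 exons; mm9), whose product is also known from oligodendrocytes, was measured at 55.9, 49.3 and 48.7 RPKM in ULA replicates 1, 2 and 3. The paired DLA libraries were at 43.8, 35.2 and 44.1 RPKM. The layers did not overlap, but brain 2 carried the widest gap, and the ratio within a brain was 1.26 ± 0.149 (SD, n = 3). The log2 difference was 0.32 (SE 0.11, 95% interval 0.08 to 0.56), with an adjusted p of 0.184 by limma, and 0.0394 when replicate 3 was left out.

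Fgfr1 (chromosome 8, 26629244 to 26686186, plus strand, 18 exons; mm9), the receptor with the broadest tissue range of the family, was measured at 47.0, 42.0 and 35.1 RPKM in ULA replicates 1, 2 and 3, against 37.3, 34.1 and 28.5 RPKM for their DLA partners. The layers overlapped because brain 3 was low in both, yet the ratio within a brain was 1.24 ± 0.017 (SD, n = 3), the narrowest spread of the 3 expressed receptors. The log2 difference was 0.30 (SE 0.10, 95% interval 0.08 to 0.53), with an adjusted p of 0.175 by limma. Fgfr4 (chromosome 13), the receptor known best from liver and muscle, was at 0.24, 0.02 and 0.04 RPKM in the ULAs, was listed at 0 in DLA replicate 1, and was at 0.09 and 0.1 RPKM in the other DLAs. These values rest on at most 19 reads in a library, so Fgfr4 was below the filter and no difference between layers was detectable at this depth.

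The 3 expressed receptors are encoded by mRNAs longer than most, and long mRNAs tended to be higher in the ULAs. The Fgfr1, Fgfr2 and Fgfr3 mRNAs have 5008, 5346 and 4399 bases, against a median of 2444 bases over the rows tested. Over the 2142 rows of 4000 to 6000 bases the median log2 difference was 0.08. With the length trend of each brain removed, the log2 difference was 0.35 for Fgfr3, 0.24 for Fgfr2 and 0.23 for Fgfr1, and the adjusted p by limma was 0.108, 0.301 and 0.336. With both the length and the GC trend removed, a setting chosen after seeing the data, Fgfr3 passed at an adjusted p of 0.0192 by limma with a log2 difference of 0.37, whereas Fgfr2 and Fgfr1 did not (0.165 and 0.119).

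Fgfr3 made up most of the receptor mRNA in both layers. The RPKM of Fgfr1 to Fgfr4 summed to 395.1 ± 37.3 in the ULAs and 301.3 ± 24.7 in the DLAs (SD, n = 3), a ratio within a brain of 1.31 ± 0.043. Fgfr3 made up 76.5% ± 1.45 of that sum in the ULAs and 75.3% ± 0.541 in the DLAs (SD, n = 3), a difference within a brain of 1.19 ± 0.94 percentage points, and was the larger share in the ULAs of all 3 brains. Fgfr2 made up 13.0% and 13.6%, and Fgfr1 made up 10.5% and 11.1%, respectively, the Fgfr1 share being the smaller in the ULAs of all 3 brains. The sum and the shares are given as a description and were not tested.

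**Figure D2:**
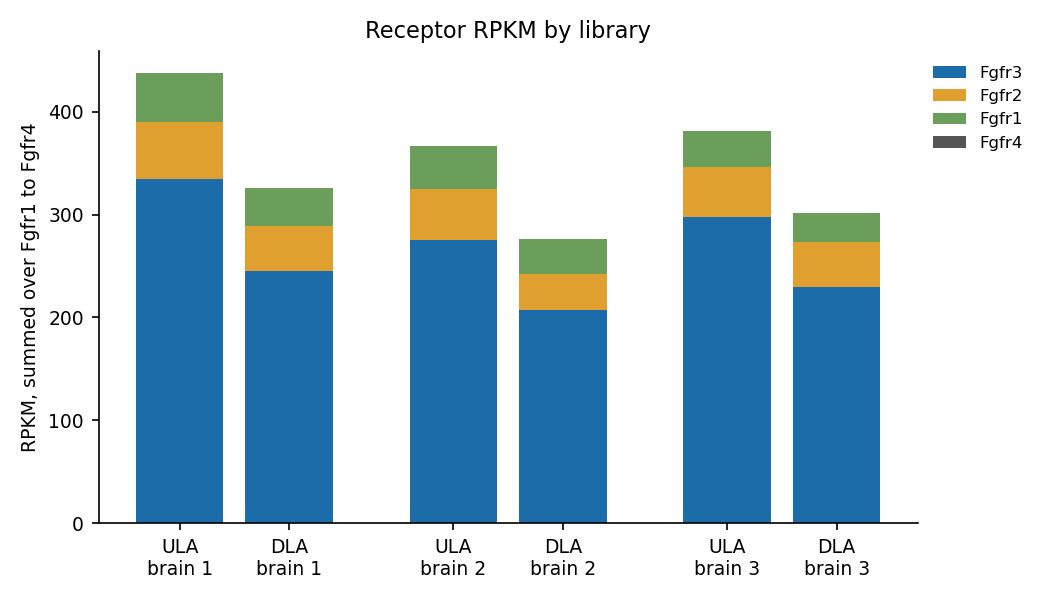
Stacked bars of the RPKM of Fgfr1, Fgfr2, Fgfr3 and Fgfr4 in each of the 6 libraries, on a linear axis from 0. Fgfr3 is the largest part of every bar, every ULA bar is taller than the DLA bar of its brain, and Fgfr4 is too low to be seen.

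Fgfrl1 (chromosome 5, 109123248 to 109135969, plus strand, 7 exons; mm9) encodes a receptor that binds FGFs but has no kinase domain. Its level was 36.7, 27.5 and 27.2 RPKM in ULA replicates 1, 2 and 3, and 39.3, 27.8 and 29.4 RPKM in the DLAs. The DLA library was higher in all 3 brains, by margins smaller than the spread between brains. The log2 difference was -0.07 (95% interval -0.30 to 0.16; adjusted p of 0.776 by limma), and the interval lies on both sides of 0.

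Fgfbp3 (chromosome 19, 36992040 to 36994089, minus strand, 2 exons; mm9) encodes a secreted protein that binds FGFs and releases them from the heparan sulfate of the matrix. Its level was 4.81, 1.26 and 4.62 RPKM in ULA replicates 1, 2 and 3, against 11.2, 5.29 and 10.3 RPKM for their DLA partners. Brain 2 was lowest in both layers, and each DLA library was above each ULA library. The DLA to ULA ratio within a brain was 2.92 ± 1.1 (SD, n = 3). Fgfbp3 thus fell by 1.19 on the log2(RPKM + 1) scale from the DLAs to the ULAs (SE 0.14, 95% interval -1.51 to -0.87), with an adjusted p of 0.00378 by limma. The call was kept with the length trend removed (log2 difference -1.09, adjusted p of 0.011). It was lost without the replicate block (adjusted p of 0.382) and with no filter on low rows (0.301). Over all alternatives the adjusted p by limma ran from 2.92e-06 to 0.382. Fgfbp3 too stood on a list that the study drew from these libraries, and its direction is not independent evidence.

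Fgf1, a ligand that binds all FGF receptors and lacks a classical secretion signal, was the higher of the 2 secreted ligands. It was at 40.3, 36.6 and 32.6 RPKM in ULA replicates 1, 2 and 3; the DLA libraries, at 41.3, 36.2 and 39.4 RPKM, overlapped with them. The log2 difference was -0.10 (95% interval -0.33 to 0.14; adjusted p of 0.699 by limma), and its sign turned with quantile normalization, as did that of Fgfrl1. Fgf2 (chromosome 3), a ligand that is likewise released without a signal peptide, was at 1.52, 1.45 and 1.82 RPKM in the ULAs, against 1.35, 1.68 and 1.35 RPKM for the DLAs. These values rest on 23 to 34 reads over a listed mRNA of 695 bases, and the interval of the log2 difference, -0.28 to 0.44 around 0.08, was wide (adjusted p of 0.85 by limma).

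The intracellular homologues lay near or below the middle of the tested rows, Fgf13 at percentile 52.8 of mean level and Fgf14 at percentile 36.7. Fgf14 (chromosome 14, 124377513 to 125076349, minus strand, 6 exons; mm9) was at 4.73, 9.16 and 5.08 RPKM in ULA replicates 1, 2 and 3, against 2.38, 4.32 and 4.73 RPKM for the DLAs. The ULA library was higher in all 3 brains, by little in brain 3, and the layers overlapped between ULA replicate 1 and DLA replicate 3, whose values were equal. The ratio within a brain was 1.73 ± 0.57 (SD, n = 3) and the log2 difference was 0.59 (SE 0.17, 95% interval 0.21 to 0.98; adjusted p of 0.134 by limma). Without replicate 3 the difference was 0.85, with an adjusted p of 0.00145. Fgf13 (chromosome X) was at 7.49, 10.5 and 9.08 RPKM in the ULAs and 9.26, 9.16 and 9.40 RPKM in the DLAs, with a log2 difference of -0.05 (95% interval -0.34 to 0.24; adjusted p of 0.889 by limma).

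**Figure D3:**
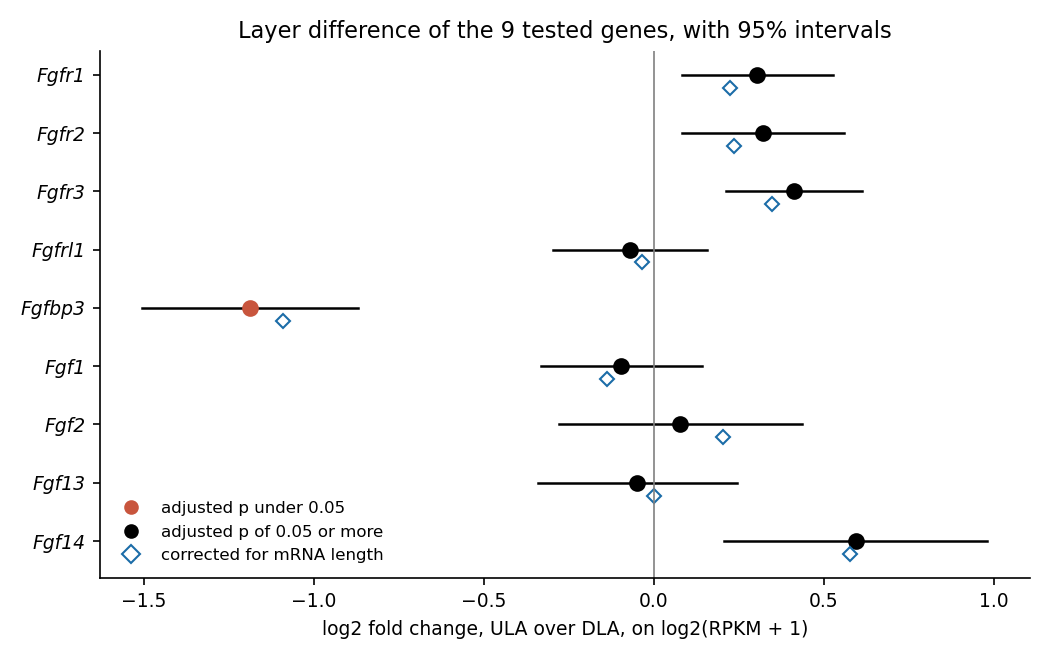
Difference in log2(RPKM + 1), ULA minus DLA, for the 9 FGF genes tested, with 95% intervals from the limma fit of 3 pairs. The Fgfbp3 interval lies wholly below 0, those of Fgfr1, Fgfr2, Fgfr3 and Fgf14 lie above 0 without passing the adjusted threshold, and those of Fgfrl1, Fgf1, Fgf2 and Fgf13 include 0.

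The other genes of the pathway were read from the same fit in 7 lists of 108 genes, of which 60 were expressed highly enough to be tested. One gene passed as higher in the ULAs (Hs3st1) and 1 as higher in the DLAs (Hras1), and the median log2 difference of the 60 was 0.10. Over all rows tested 0.714% and 0.914% passed in those directions, so 1 of 60 each way was near the background. At an unadjusted p under 0.05 were 5 of the 60 higher in the ULAs and 3 higher in the DLAs, against 5.64% and 10.8% of all rows. Of 18 further FGF ligand genes 8 were listed at 0 in all libraries and only Fgf12 and Fgf18 were tested, neither of which passed. Fgf12, a further intracellular homologue and the most abundant of the group, was at 29.3, 34.1 and 30.1 RPKM in the ULAs and 30.3, 23.2 and 31.0 RPKM in the DLAs. The layers overlapped (log2 difference 0.15, 95% interval -0.15 to 0.45).

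Of 9 co-receptor and membrane modulator genes 4 were tested and none passed by limma, with 1 at an unadjusted p under 0.05, higher in the DLAs. The adhesion molecules Ncam1 and Cdh2, which can bind FGF receptors, averaged 161 ± 11.3 and 66.5 ± 8.31 RPKM in the ULAs and 139.8 ± 6.81 and 56.5 ± 3.73 RPKM in the DLAs (SD, n = 3). Of 12 heparan sulfate core protein genes 9 were tested and none passed by limma, with 1 in each direction at an unadjusted p under 0.05. Gpc5, a glypican, reached 897 ± 249 RPKM in the ULAs and 814 ± 5.22 RPKM in the DLAs (SD, n = 3), the wide ULA spread coming from replicate 2 at 1177 RPKM. The syndecan gene Sdc2 averaged 143.8 and 131.8 RPKM, respectively.

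Of 22 genes of heparan sulfate synthesis and sulfation 10 were tested and 1 rose in the ULAs, with 3 at an unadjusted p under 0.05, all higher in the ULAs, and a list median of 0.21. Hs3st1 encodes a sulfotransferase that adds 3-O-sulfate to the chain. It was at 6.33, 7.91 and 4.42 RPKM in ULA replicates 1, 2 and 3, against 3.10, 4.28 and 2.46 RPKM for the DLAs. The ULA library was higher in each brain and the layers did not overlap (log2 difference 0.75, SE 0.13; adjusted p of 0.023 by limma, 0.00237 to 0.339 over the alternatives). The call was lost without replicate 1 (0.104), without the replicate block (0.328) and with no filter on low rows (0.339). Hs2st1, which adds 2-O-sulfate, averaged 29.5 ± 1.19 RPKM in the ULAs and 23.6 ± 3.66 RPKM in the DLAs (SD, n = 3; adjusted p of 0.253 by limma), and Ext2, a chain polymerase gene, averaged 42.9 and 43.1 RPKM.

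All 22 genes of the receptor signal relay were tested, and 1 passed, lower in the ULAs, with a list median of 0.03. Hras1, a RAS gene, was at 6.64, 2.69 and 6.29 RPKM in the ULAs and 11.2, 4.33 and 10.9 RPKM in the DLAs, again with brain 2 lowest in both layers. The layers overlapped, but the DLA library was higher in each brain (log2 difference -0.64, SE 0.13; adjusted p of 0.0376 by limma, 0.0238 to 0.583 over the alternatives, of which 7 of 12 kept the call). The call was lost with the length trend removed (0.073), without the intensity trend of the fit (0.053) and without replicate 1 (0.198). It was also lost without the block (0.583) and with no filter (0.339). The log2 difference of Hras1 in these fits ran from -0.636 to -0.575, the latter with the length trend removed. The kinase gene Map2k1 averaged 57.1 ± 4.67 RPKM in the ULAs and 60.8 ± 3.70 RPKM in the DLAs (SD, n = 3).

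Of 15 feedback and target genes of the FGF-ERK pathway 11 were tested and none passed by limma, with 1 at an unadjusted p under 0.05, higher in the ULAs, and a list median of 0.19. Dusp6, an ERK phosphatase gene, was at 87.3, 135 and 98.9 RPKM in the ULAs, against 121, 165 and 84.4 RPKM for the DLAs, so the layers overlapped, and the target gene Etv4 averaged 44.9 ± 3.90 and 42.7 ± 5.91 RPKM (SD, n = 3), respectively. The gene of the list with the smallest p, named after its values were seen, was Spry1, a Sprouty inhibitor, at 4.33, 6.42 and 10.9 RPKM in the ULAs, against 2.40, 3.83 and 8.28 RPKM for the DLAs. The layers overlapped, but the ULA library was higher in each brain (log2 difference 0.54, SE 0.13; adjusted p of 0.0865 by limma). Without replicate 3 the adjusted p was 0.0239 for Spry1, higher in the ULAs, and 0.0468 for Dusp6, higher in the DLAs. Spry1 passed under 2 of 12 alternatives, the other being the length and GC correction, and Dusp6 under 1. Of the 10 sodium channel genes whose products bind intracellular FGFs, 2 were tested and none passed by limma, with none at an unadjusted p under 0.05. Scn8a, a channel gene known from neurons, averaged 2.62 ± 0.381 RPKM in the ULAs and 2.52 ± 0.479 RPKM in the DLAs (SD, n = 3).

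**Figure D4:**
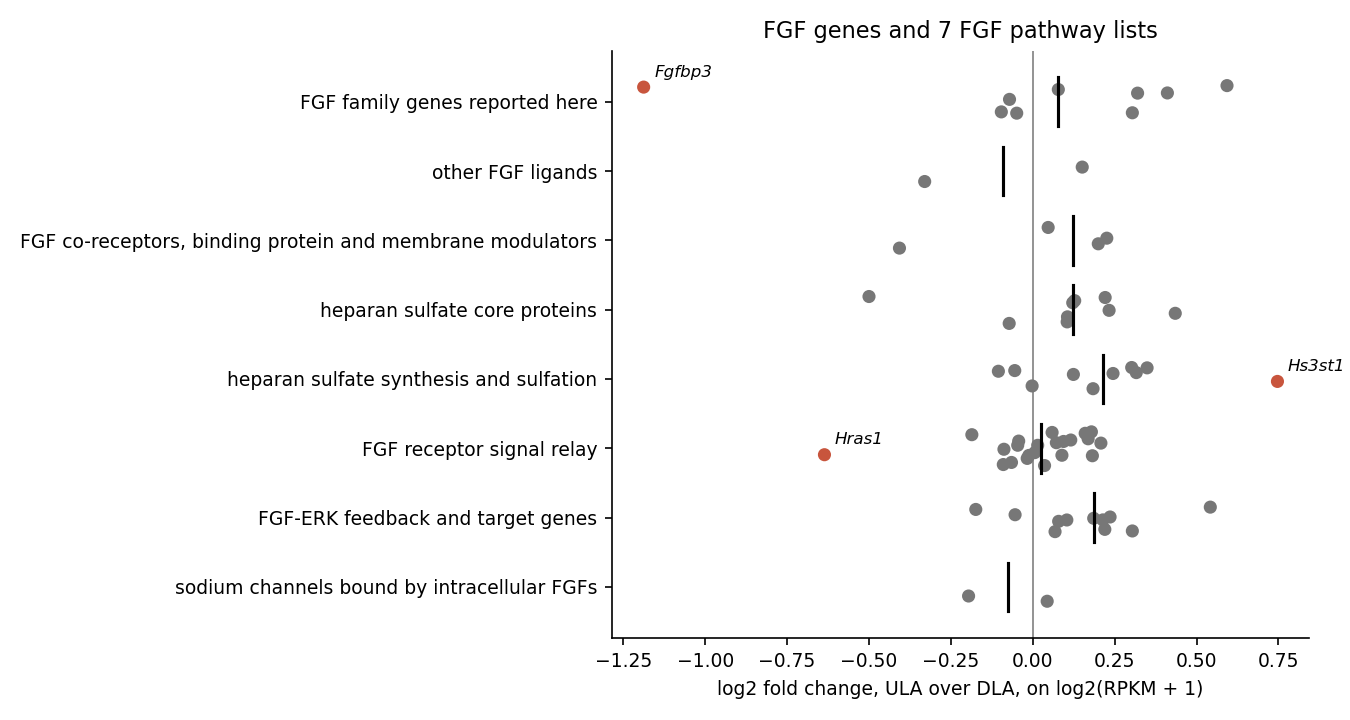
Difference in log2(RPKM + 1), ULA minus DLA, for each tested gene of the FGF family and of the 7 pathway lists, 1 point per gene, with black ticks at each list's median and the genes past the adjusted threshold in red. Most points lie near 0, and the 3 genes past the adjusted threshold are Fgfbp3 and Hras1 on the DLA side and Hs3st1 on the ULA side.

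The genes whose log2(RPKM + 1) tracked each FGF gene most closely were found by Pearson's r over the 6 libraries among 7914 rows with a RefSeq accession and a mean of at least 5 RPKM. With 6 points that share layer, brain and depth, high values are easily reached, and the names are a description. For Fgfr3 they were Gm2a (r = 0.995), Nlgn3 (0.994) and Pcdha4-g (0.99), for Fgfr2 Abce1 (0.991), Spna2 (0.986) and Nrcam (0.985), and for Fgfr1 Appl2 (0.995), Dagla (0.992) and Fbxo10 (0.991). Those nearest Fgfbp3 were Rnf126 (0.992), Pla2g3 (0.988) and Aes (0.988), and those nearest Fgfrl1 were Errfi1 (0.983), Setd6 (0.98) and Zfp426 (0.976). Fgf14 was tracked by Ppp2r3a (0.975), Bcl6 (0.97) and Fam172a (0.969), Fgf13 by Ahcyl2 (0.985), Tmem55a (0.969) and Dync1li1 (0.969), and Fgf1 by Parp11 (0.971), Impa2 (0.97) and Gatad2b (0.968). No gene was among the 3 nearest of more than 1 FGF gene.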

How the data were processed

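RNA was measured in 3 ULA and 3 DLA libraries. The authors deposited 1 table of RPKM per library with an mRNA length and exon coordinates per row, and all value columns were mapped to a sample. The submitters' processing notes name CASAVA 1.8.2, bcl2fastq 1.8.4 and mm9, and the aligner and counter are not given in the sources used here. Coordinates were converted to count from 1. Depth was recovered from the steps between low RPKM values, which are cut to 2 decimals, so RPKM below about 0.01 carry no information. Rows with a mean of at least 1 RPKM were tested on log2(RPKM + 1) with limma 3.58.1 in R 4.3.3 (empirical Bayes with trend, two-sided, Benjamini-Hochberg over 13999 rows), with layer as the effect and replicate number as a block. Deviations of same-numbered libraries from their layer means correlated at 0.42, 0.33 and 0.34, so the numbers were taken to pair them. The code was tested on simulated data. An exact paired permutation test of 3 pairs cannot give p below 0.25, and an unpaired one of 3 against 3 cannot give p below 0.1. Alternatives were the pseudocount, the filter, the trend, the block, the normalization, a length correction, leaving out each brain and, added after seeing the data, a length and GC correction, which used the 81.4% of rows with a GC value. Named were all 10 FGF genes, pathway genes past the threshold, the 2 most abundant tested genes of each list (some of them are not reported here), and for each FGF gene at 5 RPKM or more its 3 nearest rows. The FGF genes and the lists were chosen with earlier results of these data known. Figures were drawn with matplotlib 3.10.9.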

Additional observations from a re-analysis of the deposited data

How the results depend on the processing

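Of 107 values of the 9 FGF genes under 12 alternatives, 94 kept their direction and their side of the threshold, 7 passed newly, 2 (both Fgfbp3) no longer passed and 4, all near 0, changed sign. The log2 differences with a changed sign were 0.02 for Fgfrl1 and 0.005 for Fgf1 with quantile normalization, and leaving out 1 brain gave -0.014 to 0.182 for Fgf2 and -0.159 to 0.064 for Fgf13. Among 165 values of the named pathway genes 12 changed sign, none of them of Hs3st1 or Hras1. Leaving out 1 brain gave -0.041 to 0.25 for Fgf12, -0.104 to 0.261 for Gpc5, -0.071 to 0.05 for Ext2 and -0.092 to 0.19 for Scn8a. The length correction gave 0.019 for Ext2 and -0.062 for Scn8a, and the length and GC correction 0.016 and -0.066 for the same genes. Quantile normalization gave 0.008 for Map2k1 and 0.099 for Ext2, and median centring 0.008 for Ext2. Without the replicate block, FGF genes higher in the DLAs went from 1 to 0, all rows from 100 to 23 (ULAs) and from 128 to 18 (DLAs), and the pathway lists from 1 to 0 in both directions. With no filter on low rows all 6 counts were 0, although 1124 rows (ULAs) and 1675 (DLAs) had an unadjusted p under 0.05 by limma. FGF genes higher in the ULAs numbered 1 (Fgfr3) with a minimum mean of 5 RPKM, with quantile normalization and with the length and GC correction, where all rows higher in the ULAs numbered 210 and pathway genes 2. The minimum of 5 RPKM left 0 pathway genes higher in the ULAs, as Hs3st1 fell below that minimum and was not tested. Without the trend, rows numbered 65 and 79 and pathway genes higher in the DLAs 0. With the length correction, rows higher in the DLAs numbered 78 and pathway genes 0. Leaving out 1 brain gave 0 to 3 FGF genes higher in the ULAs, the 3 being Fgfr2, Fgfr3 and Fgf14 without replicate 3, and 1 to 1 in the DLAs. It gave 104 to 426 and 126 to 687 rows and 0 to 2 pathway genes in each direction, the highest counts all without replicate 3. With 2 brains each row has 1 residual degree of freedom, and its spread is taken mostly from other rows. The difference in Fgfr3 share was 0.757 to 1.69 percentage points under these omissions. With 3 brains, intervals of the low genes Fgf2 and Fgf14 remain wide.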

Other observations

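Of the 48 genes of the FGF pathway lists below the filter of 1 RPKM, 39 were above 0 in some library, and the layers of 6 did not overlap, 4 with the ULAs above and 2 with the DLAs above. Over all 13964 rows below the filter and above 0 in some library, the shares were 3.95% and 2.6%. They were chosen after their values were seen. Il17rd, a membrane inhibitor of FGF signalling, was at 1.11, 1.01 and 1.73 RPKM in ULA replicates 1, 2 and 3, against 0.4, 0.38 and 0.73 RPKM for the DLAs. Glce, the epimerase gene of heparan sulfate, was at 1.05, 1.13 and 0.77 RPKM in the ULAs, against 0.56, 0.57 and 0.54 RPKM for the DLAs.

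The 3-O-sulfotransferase genes of heparan sulfate below the filter did not share a direction where the layers did not overlap. The layers of Hs3st2 and Hs3st5, also below the filter, overlapped. Hs3st3a1 was at 1.26, 0.95 and 0.77 RPKM in the ULAs, against 0.32, 0.07 and 0.28 RPKM for the DLAs. Hs3st3b1 was at 0.69, 0.33 and 0.61 RPKM, against 0.25, 0.27 and 0.2 RPKM. Hs3st4 was lower in the ULAs, at 0.05, 0.03 and 0.11 RPKM, against 0.15, 0.21 and 0.2 RPKM. These levels are in the range of those of Fgfr4, which rest on at most 19 reads, so the direction of Hs3st4 is uncertain. Sulf2, whose product removes 6-O-sulfate outside the cell, was likewise lower in the ULAs, at 0.11, 0.13 and 0.12 RPKM, against 0.18, 0.44 and 0.63 RPKM. With no filter none of the 6 passed by limma, the adjusted p of Il17rd being 0.373 and that of Hs3st3a1 0.339. Each had an unadjusted p under 0.05, which adds little because the 6 were picked for layers that did not overlap. Of the 27963 rows in that fit, 1124 had such a p as higher in the ULAs and 1675 as higher in the DLAs.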
